A study of Mus musculus with 6 samples.

Results

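The transcripts of 10 enzymes that add glutamate to tubulin or take it off again were followed in full-grown mouse oocytes, the large cells that store maternal mRNA before maturation. The set comprised 10 of the 55291 genes of the deposited count table, namely 6 carboxypeptidase genes (Agtpbp1, Agbl1, Agbl2, Agbl3, Agbl4 and Agbl5) and 4 tubulin tyrosine ligase-like genes (Ttll1, Ttll4, Ttll5 and Ttll7). They were chosen by name around Agbl2, which itself had been selected on its low counts in the Pan2 knockout libraries relative to the wild-type library. The difference in Agbl2 is therefore a description with no test, and the other members were read from the same comparison.

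The study compared Pan2 knockout (KO) oocytes with wild-type (WT) oocytes. PAN2 is the catalytic subunit of a deadenylase that shortens mRNA poly(A) tails. The labels give no strain, age, allele or driver of the deletion, and leave unsaid if each library came from another female. The tissue is labelled full-grown oocyte in every sample. Counts were analysed for 3 KO libraries and 2 WT libraries of the 6 labelled samples; the WT sample numbered 3 was not analysed here.

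Glutamate side chains are built on the C-terminal tails of tubulin by ligases of the TTLL family and are shortened or removed by cytosolic carboxypeptidases. The length of the chains tunes how severing enzymes, motors and other proteins bind microtubules, and the mark is dense on axonemes, centrioles and neuronal microtubules and is also found on spindles. In oocytes the microtubules in question are those of the interphase-like array and of the meiotic spindle that forms once maturation begins.

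The libraries held 12038990, 23359636 and 26770521 counts in KO 1, KO 2 and KO 3, against 23485093 in WT 1 and 3785574 in WT 2. WT 2 did not follow the gene models on the chromosomes that carry the members. CPM is the count scaled to library depth, with TMM factors, except that WT 2 was scaled by its own total alone. Correlations of log2(CPM + 1) were taken chromosome by chromosome, over the tested genes of the 10 that carry the members. WT 2 reached 0.0596 to 0.204 with KO 1, KO 2, KO 3 and WT 1. Among themselves those 4 libraries reached 0.947 to 0.993; these are correlations across genes and carry no test. KO oocytes were therefore compared with WT 1 alone, and the error comes from the KO libraries, with the lone WT library assumed to vary like them. Pan2 itself stood at 44.6, 11.9 and 34.0 CPM in KO 1, KO 2 and KO 3, against 77.6 CPM in WT 1, and did not pass (log2 fold change -1.37, SE 0.53, edgeR adjusted p = 0.301). Every KO library lay below WT 1. Counts span the whole gene, reads by exon were not examined, and the source of the remaining Pan2 reads was not tested. All 10 oocyte markers examined, among them Gdf9 and Zp3, were detected, with a summed level of 23051 to 28069 CPM in KO libraries and 27035 CPM in WT 1.

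Agbl2 encodes a deglutamylase that trims glutamate side chains. It had 14, 16 and 19 counts in KO 1, KO 2 and KO 3, against 775 counts in WT 1. Scaled to depth, these were 1.14, 0.715 and 0.711 CPM in the KO libraries and 32.4 CPM in WT 1. The KO libraries lay close together and far below WT 1. The mean of 0.854 ± 0.245 CPM (SD, n = 3) in KO oocytes was 37.9-fold lower than the value of WT 1, a log2 fold change of -5.28 (SE 0.42). Of the 17799 genes tested, 47 had a lower log2 fold change. Per kilobase of exon, Agbl2 stood at the 8.14th percentile of the tested genes in KO oocytes and at the 62.7th percentile in WT 1. In WT 2 the gene had 8 counts, which need not come from it.

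**Figure D1:**
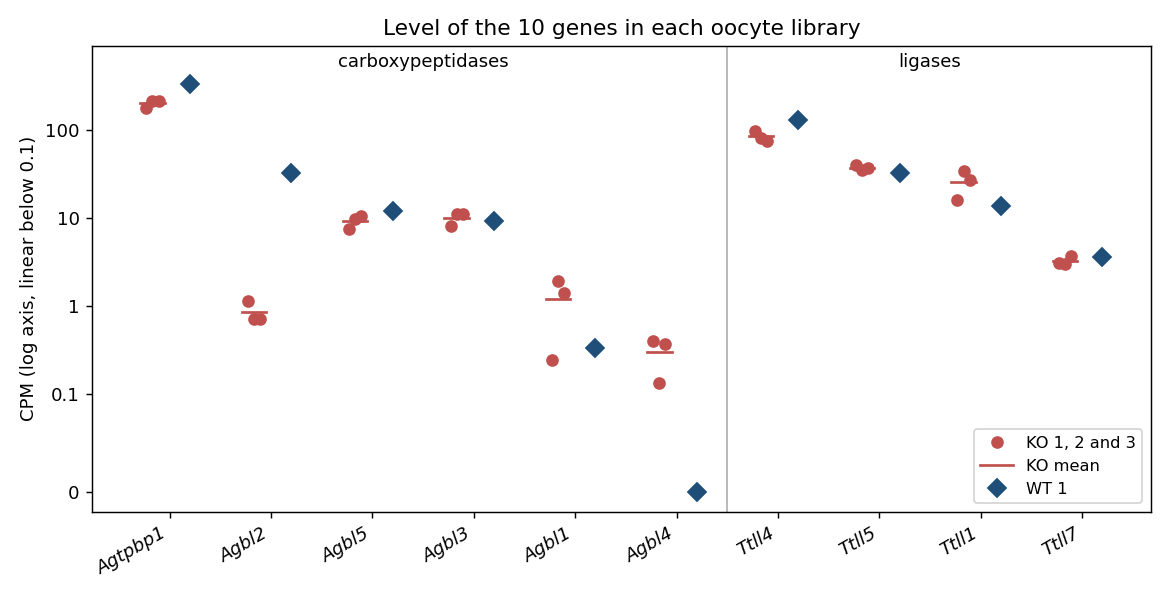
Level of each gene in CPM (log axis, linear below 0.1) in the 3 KO libraries (circles, with a bar at their mean) and in WT 1 (diamond). Agbl2 lies at 0.711 to 1.14 CPM in the KO libraries and at 32.4 CPM in WT 1, while WT 1 lies inside or near the KO range for Agbl3, Ttll5 and Ttll7.

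The gene (ENSMUSG00000040812.14) lies on the plus strand of chromosome 2, from 90782727 to 90834437 in mm10, with 24 merged exons that sum to 6650 bases and 8 annotated transcripts in GENCODE M21, 5 of them protein-coding. The processed pseudogene Gm13772 lies inside it on the opposite strand and shares 0 bases with its exons. Gm13772 had 50, 70 and 34 counts in KO 1, KO 2 and KO 3, and 54 counts in WT 1.

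The promoter windows of Agbl2 and of its paralogue Agbl3, whose transcript did not pass, are shown to let the start regions of these related genes be compared. The windows run from 250 bases before the annotated start to 50 bases after it (RefSeq, GRCm38.p6), at chr2:90782477-90782776 and chr6:34780182-34780481, both on the plus strand. Capitals mark the letters GTTGCC or their reverse complement GGCAAC, the half-site of the X-box that RFX factors bind at many ciliary genes.
Agbl2: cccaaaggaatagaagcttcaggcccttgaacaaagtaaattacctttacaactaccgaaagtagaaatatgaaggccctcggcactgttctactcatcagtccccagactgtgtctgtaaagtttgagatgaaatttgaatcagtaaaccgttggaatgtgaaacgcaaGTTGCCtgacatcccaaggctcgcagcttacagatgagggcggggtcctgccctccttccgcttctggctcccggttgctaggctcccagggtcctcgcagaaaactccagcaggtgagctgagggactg
Agbl3: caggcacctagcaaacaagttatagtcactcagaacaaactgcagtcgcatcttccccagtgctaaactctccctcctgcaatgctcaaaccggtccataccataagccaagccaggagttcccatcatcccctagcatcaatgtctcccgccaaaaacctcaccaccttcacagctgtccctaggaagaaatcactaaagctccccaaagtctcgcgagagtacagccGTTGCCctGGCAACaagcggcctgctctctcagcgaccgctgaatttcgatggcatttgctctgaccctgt
The Agbl2 window held 1 such match, which began 80 bases before the start. In the Agbl3 window there were 2, beginning 21 and 13 bases before the start, as an inverted repeat. On both strands, 12.5% of the 32851 promoter windows of the same length held a match. RefSeq windows were found for 9 of the 10 members, 4 of which held it, the others being Agtpbp1 and Ttll5. Only the window nearest the start of the counted gene model was read for each member. Agbl2 had 2 RefSeq windows, Agtpbp1 3 and Agbl5 4, so matches at their other starts are not given. The Agtpbp1 window belongs to a start inside the gene model that was counted, 27880 bases downstream of the start of that model. TAATTG, the element that the oocyte factor NOBOX binds, was in 0 of the 9 windows and in 8.0% of all windows, and CANNTG, the E-box, in 7 of the 9 and in 72.3% of all. A match of letters is a description of these windows and not a site.

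Of the genes around Agbl2, none that could be tested passed. In the same fit 1.93% of all tested genes passed, so a result of none among so few neighbours says little about the locus. Fnbp4, a formin-binding protein gene that ends 1706 bases before Agbl2 begins, stood at 93.1, 149 and 157 CPM in KO 1, KO 2 and KO 3 and at 136 CPM in WT 1, with the WT value inside the KO range. Mtch2, which encodes a mitochondrial outer membrane insertase and begins 12718 bases beyond the end of Agbl2, was at 10.1, 8.13 and 8.68 CPM in the KO libraries and at 7.98 CPM in WT 1. Nup160, a nuclear pore gene, averaged 70.3 ± 12.9 CPM in KO oocytes (SD, n = 3) and stood at 53.2 CPM in WT 1. The log2 fold change was -0.03 (SE 0.36) for Fnbp4, 0.16 (SE 0.41) for Mtch2 and 0.40 (SE 0.34) for Nup160, with edgeR adjusted p from 0.676 to 0.983, and that of Gm13772 was 0.30 (SE 0.68; adjusted p = 0.893). The pseudogene Rpl30-ps3 had 4, 0 and 8 counts in KO 1, KO 2 and KO 3 and 8 in WT 1, and C1qtnf4 had 0 counts in the 4 libraries.

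**Figure D2:**
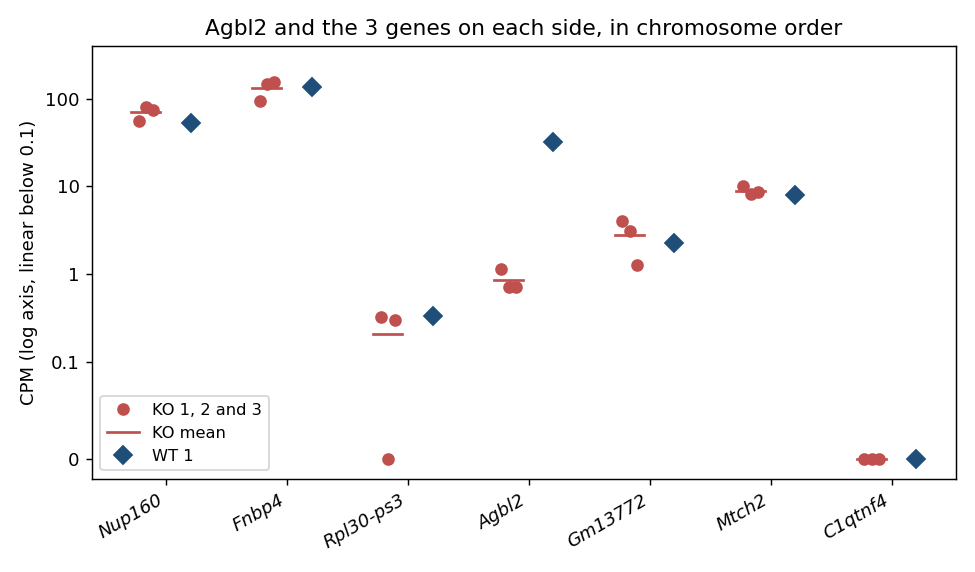
Levels in CPM (log axis, linear below 0.1) of Agbl2 and the 3 genes on each side of it in chromosome order, in the KO libraries (circles, with a bar at their mean) and in WT 1 (diamond). Agbl2, which was selected on this difference, is at 0.854 CPM on average in KO oocytes and 32.4 CPM in WT 1. Fnbp4 is at 133 and 136 CPM and Mtch2 at 8.96 and 7.98 CPM.

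Agtpbp1, the carboxypeptidase gene whose loss causes Purkinje cell degeneration in mice and whose product shortens glutamate chains, had the highest mean level per kilobase of exon of the 10 genes in KO oocytes, and the highest level in WT 1. Within the KO libraries Ttll4 stood above it in KO 1 and Ttll1 in KO 2. Its gene model, the longest in exon bases at 21824, lies on the minus strand (ENSMUSG00000021557.15, chromosome 13, 59445742 to 59585227 in mm10, as for all coordinates here). It stood at 176, 216 and 212 CPM in KO 1, KO 2 and KO 3, and at 333 CPM in WT 1. All KO libraries lay below WT 1 on this scale. The gene did not pass (log2 fold change -0.72, SE 0.30; edgeR adjusted p = 0.325).

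Agbl5 encodes the enzyme that removes the branch-point glutamate (ENSMUSG00000029165.17, chromosome 5, 30888694 to 30906965, plus strand). Its level was 7.47, 9.74 and 10.5 CPM in the KO libraries and 11.9 CPM in WT 1. All KO libraries lay below WT 1, KO 3 by little, and the gene did not pass (log2 fold change -0.36, SE 0.40; edgeR adjusted p = 0.755). Its exons share 677 bases, 9.60% of their length, with Ost4 on the opposite strand, a gene with 438 to 862 counts in the KO libraries and 1085 counts in WT 1. No source used here states whether strand was read in counting, so which gene the reads of the shared stretch belong to is uncertain.

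Agbl3, whose product like that of Agbl2 trims glutamate chains (ENSMUSG00000038836.15, chromosome 6, 34780432 to 34859459, plus strand), stood at 8.12, 11.04 and 11.03 CPM in KO 1, KO 2 and KO 3 and at 9.15 CPM in WT 1, a value inside the KO range. It did not pass (log2 fold change 0.14, SE 0.42; edgeR adjusted p = 0.920).

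Agbl1 and Agbl4, genes of further chain-shortening carboxypeptidases, were near the limit of detection. Agbl1 lies on chromosome 7 (ENSMUSG00000025754.11, 76229887 to 77124698, plus strand) and Agbl4 on chromosome 4 (ENSMUSG00000061298.14, 110397661 to 111664324, plus strand). Agbl1 had 3, 43 and 38 counts in KO 1, KO 2 and KO 3 and 8 counts in WT 1, so that KO 1 lay below WT 1 and the other KO libraries above it. It passed the filter on low counts through KO 2 and KO 3 alone, and it did not pass (log2 fold change 1.87, SE 1.09; edgeR adjusted p = 0.509). Agbl4 had 5, 3 and 10 counts in the KO libraries and 0 counts in WT 1, where 3 counts would be worth 0.125 CPM. The level of KO 2 was barely above that floor, so no fold is given, and it was the 1 member of 10 that the filter on low counts removed. Floors and intervals here speak to counting error only, because several reads can stem from 1 amplified molecule.

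Ttll4, which starts side chains and also modifies nucleosome assembly proteins (ENSMUSG00000033257.14, chromosome 1, 74661745 to 74703730, plus strand), stood at 98.6, 81.3 and 75.7 CPM in KO 1, KO 2 and KO 3, and at 131 CPM in WT 1. Every KO library was lower than WT 1. The gene did not pass (log2 fold change -0.63, SE 0.31; edgeR adjusted p = 0.415). Ttll5 starts chains on alpha-tubulin (ENSMUSG00000012609.19, chromosome 12, 85824659 to 86061893, plus strand). It had 39.5, 34.8 and 36.7 CPM in the KO libraries and 32.3 CPM in WT 1, with WT 1 just under the KO range. The SD was 6.45% of the mean over KO libraries, the smallest share among the 10 genes, and the gene did not pass (log2 fold change 0.20, SE 0.33; edgeR adjusted p = 0.845).

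Ttll1, the catalytic subunit of a polyglutamylase complex that lengthens chains (ENSMUSG00000022442.16, chromosome 15, 83483769 to 83510893, minus strand), stood at 15.997, 33.9 and 26.7 CPM in KO 1, KO 2 and KO 3 and at 13.6 CPM in WT 1. All KO libraries were above WT 1, KO 1 only slightly, and the gene did not pass (log2 fold change 0.91, SE 0.46; edgeR adjusted p = 0.439). Ttll7, which acts on beta-tubulin (ENSMUSG00000036745.15, chromosome 3, 146852367 to 146984009, plus strand), was low throughout, at 3.09, 2.99 and 3.70 CPM in the KO libraries and 3.64 CPM in WT 1, with the WT value inside the KO range (log2 fold change -0.15, SE 0.49; edgeR adjusted p = 0.927).

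**Figure D3:**
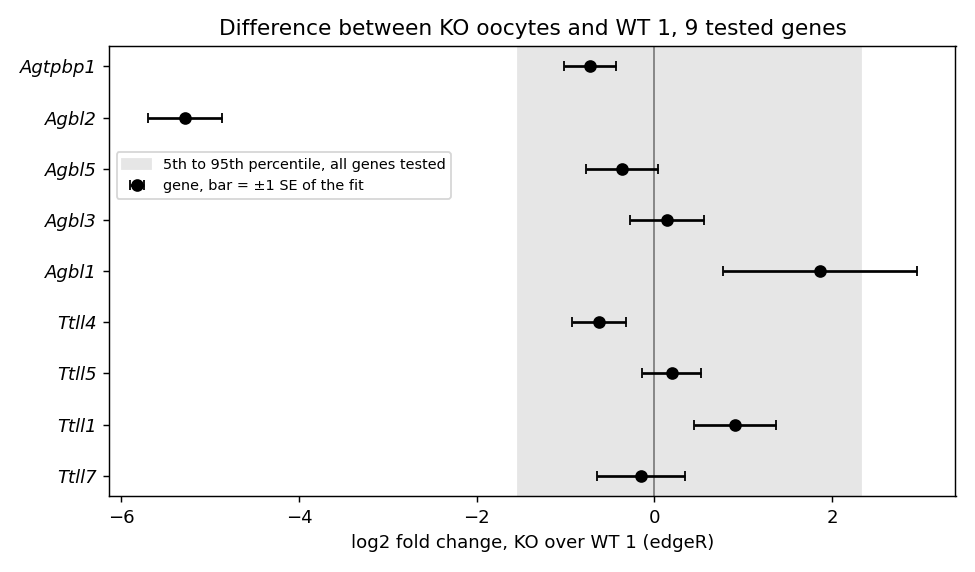
Log2 fold change of KO over WT 1 for the 9 tested members (points, with bars of 1 SE), beside the 5th to 95th percentile of all 17799 tested genes (grey, -1.53 to 2.32). Agbl2 at -5.28 lies outside the grey band and the other 8 points lie inside it, from -0.72 to 1.87.

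Across all genes, 344 of 17799 passed an adjusted p of 0.05 in edgeR, which is 1.93% of those tested. DESeq2 called 672 of 16418 (4.09%) and limma-voom 231 of 17799. Of the 8 tested members other than Agbl2, 0 passed in edgeR, in DESeq2 or in limma-voom. At such shares 0 of 8 says little about the members. With each tool 1 of them had an unadjusted p under 0.05, a threshold for which no share over all genes is given. Leaving out KO 1 changed the number of members that passed. In that fit 28.1% of all genes passed, and among the 8 members Agtpbp1 (log2 fold change -0.63, edgeR adjusted p = 0.00217), Ttll4 (-0.74, 0.000666) and Ttll1 (1.16, 0.000134) did so. Agbl1 was also called there (2.31, 0.0246), but it entered that fit only through KO 2 and KO 3, where it is high, so its call supports nothing. The error then came from KO 2 and KO 3, which of all pairs differed least. KO 1 differed less from WT 1 than from KO 2 or KO 3. The chi-square over its degrees of freedom was 45.7 with WT 1, 74.8 with KO 2 and 87.0 with KO 3. The reason was not tested, and the call rate over all genes must be read beside these calls. Without KO 2 or without KO 3, 0 of the 8 passed.

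Levels of different genes were compared per kilobase of exon, with the merged exons of all annotated transcripts as the length. That length ran from 2911 bases for Ttll1 to 21824 for Agtpbp1. The order, sums and ratio per kilobase therefore depend on it, whichever transcripts the oocytes hold. In KO oocytes Agtpbp1 led with 9.23 ± 1.01 CPM per kilobase, followed by Ttll1 with 8.77 ± 3.10 and Ttll4 with 7.39 ± 1.03 (SD, n = 3). The ranges of neighbouring genes overlapped among these 3, so their order is not settled by the spread. Ttll5 (2.33 ± 0.150), Agbl5 (1.31 ± 0.226) and Agbl3 (0.898 ± 0.150) each had a range that did not reach the next. The range of Agbl1 (0.238 ± 0.172) overlapped with those of Ttll7 (0.394 ± 0.0466) and Agbl2 (0.128 ± 0.0368). Agbl4 was lowest at 0.0317 ± 0.0155 CPM per kilobase, with no overlap with Agbl2. Agbl2 was thus in place 9 of 10 in KO oocytes and in place 3 in WT 1, where it had 4.87 CPM per kilobase, next to Ttll4 at 11.4 and Ttll1 at 4.68.

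Summed over the 6 carboxypeptidases, the level was 10.1, 12.8 and 12.6 CPM per kilobase in KO 1, KO 2 and KO 3, and 22.7 in WT 1. The KO libraries all lay below WT 1. Agbl2 made up 1.69%, 0.842% and 0.846% of that sum in the KO libraries and 21.5% in WT 1. With Agbl2 left out, the sum was still 11.7 ± 1.54 CPM per kilobase in KO oocytes (SD, n = 3) and 17.8 in WT 1, and Agtpbp1 accounted for most of both. The 4 ligases summed to 18.9 ± 2.20 CPM per kilobase in KO oocytes and 18.6 in WT 1, with WT 1 inside the KO range. Within the set, the ratio of carboxypeptidase to ligase transcripts was 0.598, 0.6004 and 0.683 in the KO libraries and 1.22 in WT 1. The ratio includes Agbl2, so part of this difference follows from its selection. With Agbl2 left out, the carboxypeptidase sum lay below the ligase sum in WT 1 (17.8 against 18.6) as in KO oocytes (11.7 against 18.9). Ttll11, a glutamylase gene outside the set, had 36.1 ± 2.80 CPM per kilobase in KO oocytes and 30.7 in WT 1. That is more than the 4 ligases together, so the size of the ratio depends on which genes are members. The sums and the ratio weigh transcripts and not enzyme activity. They were formed after Agbl2 had been chosen and rest on a single WT library, so they carry no test.

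**Figure D4:**
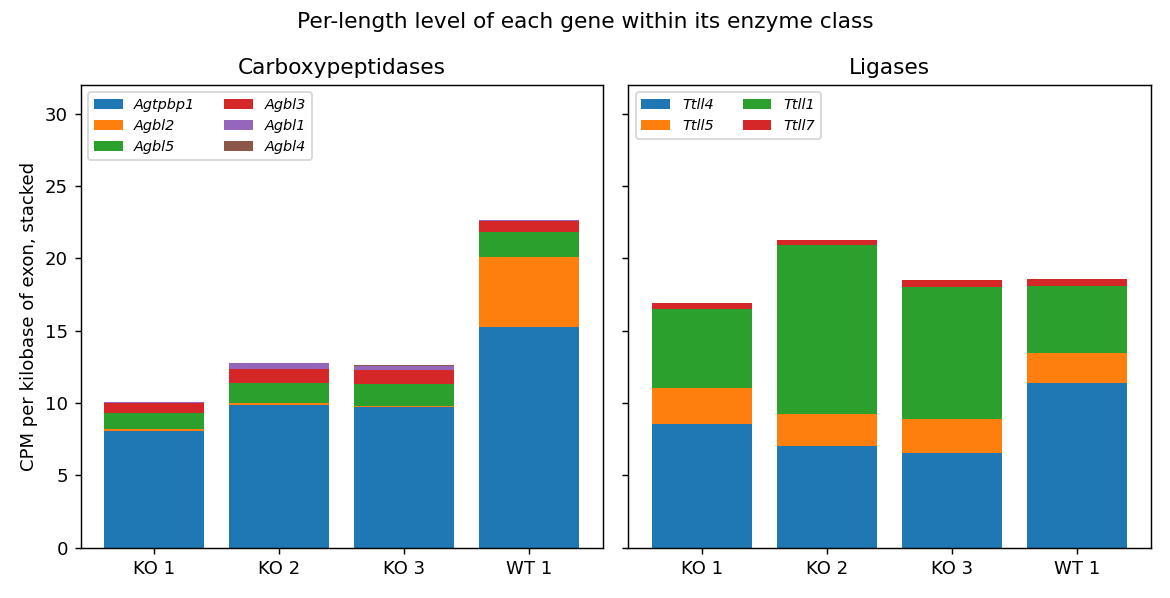
Stacked level of the 6 carboxypeptidase genes (left) and the 4 ligase genes (right) in CPM per kilobase of exon, by library. The carboxypeptidase bars reach 10.1 to 12.8 in KO libraries and 22.7 in WT 1, and the ligase bars 16.9 to 21.3 in KO libraries and 18.6 in WT 1.

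Of 36 other genes of tubulin modification and severing, 33 were in the table under the names used, 7 of these were too low to be tested, Ttll2, Fign and Rarres1 having 0 counts in the 4 libraries, and 26 were tested. In edgeR, where 1.93% of all genes passed, 0 of the 26 did. Of the 26, 3 had an unadjusted p under 0.05, a threshold for which no share over all genes is given. Limma-voom, which called 231 of 17799 genes, called 0, and DESeq2, which called 4.09% of all genes, called 1. At such shares these counts say little about the listed genes. The median log2 fold change was -0.22, with 10 above 0 and 16 below, beside a median of 0.02 over all tested genes.

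The listed gene nearest to passing was Ttll9, a polyglutamylase gene known from mouse sperm flagella. It had 44, 41 and 45 counts in KO 1, KO 2 and KO 3, against 4 counts in WT 1, or 3.57, 1.83 and 1.68 CPM against 0.167 CPM. The ratio of summed counts was 12.7 (95% counting interval 4.83 to 47.2), the log2 fold change 3.75 (SE 0.92) and the edgeR adjusted p 0.0809. The gene passed the filter on low counts only through the KO libraries, where it is high, so its p-values are given as values and not as support for a difference. DESeq2 called it (adjusted p = 0.0164), as did edgeR with no filter on low counts (0.00578) and when any 1 of the KO libraries was left out (0.00211 to 0.0181), while limma-voom gave 0.261. Over all alternatives with WT 1 alone its adjusted p lay between 0.00211 and 0.261. Fignl1, a fidgetin-like AAA ATPase gene, stood at 94.2 ± 30.2 CPM in KO oocytes (SD, n = 3) and 56.2 CPM in WT 1 (edgeR adjusted p = 0.487). Svbp, the chaperone of the vasohibin detyrosinases, averaged 49.1 ± 3.08 CPM in KO oocytes and had 87.8 CPM in WT 1 (edgeR adjusted p = 0.246). Cep41, a centrosomal protein that brings TTLL6 to cilia, averaged 86.8 ± 10.1 CPM in KO oocytes and had 148 CPM in WT 1 (adjusted p = 0.297). Each of the last 3 passed without KO 1, where 28.1% of all genes did.

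The 4 partners of TTLL1 in its polyglutamylase complex that were in the table were all detected, and none passed. Tpgs2 had the highest level of these, 371, 530 and 594 CPM in KO 1, KO 2 and KO 3 and 429 CPM in WT 1. Tpgs1 was at 33.9 ± 2.57 CPM in KO oocytes (SD, n = 3) and 48.8 CPM in WT 1, Lrrc49 at 31.3 ± 9.56 and 28.5 CPM, and Nicn1 at 7.61 ± 1.59 and 9.20 CPM. The log2 fold changes ran from -0.52 for Tpgs1 to 0.22 for Tpgs2, with edgeR adjusted p from 0.523 to 0.920. The glutamylase gene Ttll11, which is no member of the set, had 36.1 ± 2.80 CPM per kilobase in KO oocytes and 30.7 in WT 1, above all 10 members per length. In CPM not divided by length it lay below Agtpbp1. Ttll11 had a mean of 145 CPM in KO oocytes and 124 CPM in WT 1, against 201 and 333 CPM for Agtpbp1.

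By shape over the 4 libraries, the tested genes nearest to Agbl2 were Pknox2, Lrrc31, Eif3j2, Olfr995 and Btn1a1. The measure was the Euclidean distance between log2(CPM + 1) profiles centred on their means, which was 0.47, 0.65, 0.81, 0.91 and 0.99. Each was low in every KO library and detected in WT 1. Pknox2, a homeobox gene, had 0 counts in the KO libraries and 12.2 CPM in WT 1, Lrrc31 had 0.496 ± 0.126 CPM in KO oocytes (SD, n = 3) and 41.6 CPM in WT 1, and Eif3j2, a gene for a translation initiation factor subunit, had 1.20 ± 0.145 CPM and 21.5 CPM. Olfr995, an olfactory receptor gene, stood at 0 to 0.150 CPM in KO libraries and 9.11 CPM in WT 1, and Btn1a1, a butyrophilin gene, at 0 to 0.223 CPM and 8.53 CPM. Eif3j2 has a close copy, Eif3j1, with which reads may be shared. With a lone WT library any gene high in WT 1 alone scores well by this measure.

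Marker lists of other cell types were summed in the same libraries. Of 12 genes listed for multiciliated oviduct epithelium, a tissue rich in tubulin glutamylation, Foxj1 had 0 counts in the 4 libraries and 4 genes, Foxj1 included, stayed under 1 CPM in all of them. The list summed to 695 to 795 CPM in KO libraries and 883 CPM in WT 1, nearly all of it Ccno, and to 46.8 to 65.5 CPM and 51.4 CPM without Ccno. The 7 sperm and testis markers summed to 21.8 to 36.4 CPM in KO libraries and 16.8 CPM in WT 1, mostly Prm2, and to 4.04 to 4.79 CPM and 4.598 CPM without it, with Tnp1 at 0. Granulosa and cumulus markers, 10 in number, summed to 36.9 to 47.8 CPM in KO libraries and 15.0 CPM in WT 1, of which Cyp19a1 was all but 1.70 to 1.87 CPM in the KO libraries and 1.13 CPM in WT 1, and 8 of the 10 stayed under 1 CPM. The granulosa sum and the sperm and testis sum were thus higher in every KO library than in WT 1, and the multiciliated sum lower. Without Prm2 and without Ccno, the sperm and multiciliated sums of WT 1 lay inside the KO ranges. Each of these differences thus came from the top gene of its list. The granulosa rest without Cyp19a1 was small and stayed lower in WT 1. Its genes went both ways. In CPM, Hsd17b1 and Foxl2 were higher in WT 1 than in every KO library and Inhba was lower, each on 12 counts or fewer per library. The part of these lists in the values of the members was not tested. In bulk samples a lower count can come from fewer cells of a type or from less RNA per cell, which cannot be told apart.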

How the data were processed

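RNA of full-grown oocytes was primed with oligo(dT) and amplified by a Smart-seq2 method, per the labels' protocols, so a changed poly(A) tail could alter capture as well as abundance. The deposited table holds unnormalized counts for each gene symbol, with summed exon lengths, per the file headers. Trim Galore 0.6.7, STAR 2.7.10a, featureCounts 2.0.2, DESeq2 and mm10 are named in the submitters' processing notes; no annotation release or strand setting is stated in the sources used here. The series text mentions zygotes and 2-cell embryos, but titles and tissue labels name full-grown oocytes, which were followed. Coordinates of all 10 members were identical in GENCODE M21.

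Groups came from sample titles. KO 1 to 3 were compared with WT 1 using edgeR 4.0.16 (R 4.3.3, quasi-likelihood, robust=TRUE, TMM, filterByExpr, Benjamini-Hochberg over all tested genes, threshold 0.05); the SE is the log2 fold change over the root of F. CPM used the same scaling, except in WT 2, which was scaled by its own total. DESeq2 1.42.0, limma-voom (limma 3.58.1), other scalings and filters, leaving out each KO library, and all 5 libraries were alternatives. The steps were tested on simulated data. There WT 1 was drawn with the same dispersion as the KO libraries, so the assumption that it varies like them was not tested. No pair of the 4 libraries agreed within sampling noise (chi-square over its degrees of freedom 19.4, for KO 2 and KO 3, to 136). Because separate females are not stated, the spread behind the p-values may be only technical.

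The members, lists and tests were chosen with earlier results of these data known. The genes named were all members, the partners of TTLL1, the listed genes that passed or else the 2 with the lowest p in each direction, 3 neighbours of Agbl2 on each side, the 5 genes nearest to it in profile, predicted and clone-based names left out, and Pan2. Ttll11 and the genes at 0 were named after their values were seen. Cstpp1, Matcap1 and Matcap2 matched no name in the table and are not analysed here.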

Additional observations from a re-analysis of the deposited data

Results flagged for a closer look

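Agbl3 stood at 36.2 CPM of its own total in WT 2, the library left out of the comparison, above the 8.12 to 11.04 CPM of the KO libraries and the 9.15 CPM of WT 1. Counts in WT 2 did not follow the gene models on chromosome 6, where Agbl3 lies, so they need not come from this gene.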

How the results depend on the processing

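Agbl2 had a log2 fold change between -5.49 and -5.16 in the fits with WT 1 alone, the lowest without KO 1. Without a filter on low counts 868 of 28291 genes passed, and at a mean of at least 5 CPM 126 of 9973. DESeq2 called 672 of 16418. Without KO 1, 4923 of 17498 genes (28.1%) passed, without KO 2 425 of 17470 and without KO 3 498 of 17207. Of the members, 1 to 5 passed when 1 KO library was left out, Agbl2 among them each time through its selection. Thus 4 others passed without KO 1, where 28.1% of all genes did, and 0 others without KO 2 or without KO 3. The 4 include Agbl1, whose call supports nothing because it entered that fit only through KO 2 and KO 3. Of the other tubulin modification genes 1 to 5 passed when 1 KO library was left out, the 5 without KO 1, with 1 without a filter and 1 with DESeq2. These counts must be read beside the shares over all genes. Lrrc49 had a log2 fold change of -0.0396 to 0.37 over these fits, the lowest without KO 3. With WT 2 included, 0 genes and 0 members passed in edgeR (1050 genes and 1 member at an unadjusted p under 0.05), limma-voom called 0 and DESeq2 1049 genes, 1 of them a member, and Agbl2 had a log2 fold change of -4.32. Agbl3 (-0.96), Agbl5 (0.52), Agtpbp1 (0.20), Ttll4 (0.28), Ttll7 (0.78), Svbp (0.16) and Tpgs1 (0.47) changed sign there. With the replicate block added to those 5 libraries, again 0 genes and 0 members passed (1 gene at an unadjusted p under 0.05), Agbl2 was at -3.08, and Agbl3 (-0.81), Agbl5 (1.33), Agtpbp1 (1.33), Ttll4 (1.34), Ttll7 (2.24), Svbp (4.04), Cep41 (0.18) and Tpgs1 (3.10) had the other sign. The labels do not say that numbers pair the samples, and with WT 1 alone the groups share 1 number. The cause was not tested. Depth limits Agbl1, Agbl4 and Ttll9, each with 8 counts or fewer in WT 1.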
